A study of Mus musculus with 35 samples.

Results

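The 10 genes described here encode the laminin chains and nidogens of the basement membrane. They were chosen by name as the α chains *Lama1*, *Lama2*, *Lama4* and *Lama5*, the β chains *Lamb1* and *Lamb2*, the γ chains *Lamc1* and *Lamc3*, and the nidogens *Nid1* and *Nid2*. All 10 are among the 53465 genes of the bulk RNA-seq table, and all 10 were among the 19765 genes with a mean of at least 10 normalized counts that were tested. RNA came from E14.5 mouse brains described by the study as wild-type, dissociated and sorted by FACS into neural, mural, endothelial and microglial populations. The bulk data comprised 12 libraries, 3 for each population, named by population and brain (N-340, Mu-343, Ec-346, Mi-340 and so on, with N neural, Mu mural, Ec endothelial and Mi microglial), and the scRNA-seq data comprised wild-type wells on 3 plates with the sort gate given for each well. By the study's description, neural cells were negative for the vessel and blood markers of the sort and mural cells were PDGFRβ-positive. Endothelial cells carried PECAM1 and CD102, and microglia carried CD11b and CD45. The label of the single-cell wells used as microglia reads PDGFRβ low, PECAM1 low, CD41 positive and CD45 medium, and does not name CD11b. The strain was not given in the sources used here.

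A laminin is a trimer of one α, one β and one γ chain that is secreted and polymerises into a sheet at the cell surface. The α chain carries the main binding sites for integrins and dystroglycan, the γ chain carries the site bound by nidogens, and nidogens join the laminin sheet to the network of type IV collagen and perlecan. In the brain, the endothelium and its mural cells lie within such a vascular membrane, and a second membrane of the pia and the glial endfeet covers the neural tissue.

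The libraries held 17638358 to 98414914 reads assigned to genes, so that 1 read was worth 0.264 to 1.77 normalized counts, and of the wild-type wells with one of the 4 gates 686 of 994 had more than 1500 transcripts. The sorted populations carried their own markers: the summed level of 8 mural markers was 707209 to 762599 normalized counts in the mural libraries and at most 7141 elsewhere, and that of 8 endothelial markers was 182182 to 212355 in the endothelial libraries and at most 2558 elsewhere. The separation was less clean for 8 neural markers, which summed to 128957 to 138796 in the neural libraries but to 34137 to 63426 in the mural and 16034 to 16833 in the endothelial libraries. Neural libraries were made with another kit than the other populations, so the neural population and the kit cannot be told apart in the bulk data. The library Ec-343 stood apart from the other endothelial libraries for several members, and the calls that changed without it are given. Erythroid markers summed to 13054 to 34138 normalized counts in the endothelial and 9042 to 11841 in the neural libraries, and their part in the results was not tested. In the mural libraries the fibrillar collagens summed to 13353 to 17453 normalized counts, against 1286 to 1600 in the endothelial libraries, and the 10 strict fibroblast markers to 1105 to 1520, against 169 to 684. Of those markers, *Osr1* was at 0 in all mural libraries and *Pdgfra* was at most 0.939, whereas *Twist1* was at 215 to 365 and *Ogn* at 438 to 815. In bulk samples, fewer cells of a type and less RNA per cell cannot be told apart.

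RefSeq promoters on the build GRCm38.p6 were found for 5 of the 10 members, *Lama2*, *Lama5*, *Lamb1*, *Lamb2* and *Nid1*. The 250 bases before the start are shown for *Lamb1* and *Nid1*, which were both highest in mural and next highest in endothelial cells, and for *Lama5*, which was low in mural cells. The capitals mark the GC box GGGCGG, read on both strands.
Lamb1 (chr12:31265043-31265292, plus strand): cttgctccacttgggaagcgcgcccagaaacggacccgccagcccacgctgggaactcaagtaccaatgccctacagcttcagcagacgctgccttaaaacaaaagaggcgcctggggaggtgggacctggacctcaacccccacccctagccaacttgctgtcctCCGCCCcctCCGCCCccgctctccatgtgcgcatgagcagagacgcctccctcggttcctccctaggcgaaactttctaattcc
Nid1 (chr13:13437352-13437601, plus strand): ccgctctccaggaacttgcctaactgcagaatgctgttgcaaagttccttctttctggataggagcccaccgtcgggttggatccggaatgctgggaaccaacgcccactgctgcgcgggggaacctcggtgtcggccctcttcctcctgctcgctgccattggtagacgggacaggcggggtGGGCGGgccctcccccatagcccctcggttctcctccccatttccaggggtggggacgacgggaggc
Lama5 (chr2:180225860-180226109, minus strand): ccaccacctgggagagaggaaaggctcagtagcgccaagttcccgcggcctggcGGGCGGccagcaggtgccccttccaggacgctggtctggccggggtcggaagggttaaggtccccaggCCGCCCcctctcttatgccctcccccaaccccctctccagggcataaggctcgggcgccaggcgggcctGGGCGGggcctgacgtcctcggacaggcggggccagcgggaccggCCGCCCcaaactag
The *Lama5* promoter held 4 GC boxes, that of *Lamb1* 2 and that of *Nid1* 1, and a GC box was in 32.7% of all 32851 promoters over the same window. These 3 promoters had a GC content of 72.4%, 62.0% and 64.4% for *Lama5*, *Lamb1* and *Nid1*, against a median of 52.4% over all promoters. The promoters of *Lama2* and *Lamb2* held no GC box and had a GC content of 47.2% and 43.6%. The RefSeq start used for *Lama2* lay 2816 bases inside the gene as annotated by GENCODE, so its window belongs to another start than the GENCODE one, whereas those of *Lama5*, *Nid1* and *Lamb1* lay 0, 51 and 59 bases from it. The other motifs searched on both strands, TATAAA (the TATA box), TGTTTAC (forkhead), CACGTG (E-box), TGACTCA (AP-1) and CCGGAAG (ETS), were not in these windows of the 5 members. Over all promoters they were in 12.4%, 3.17%, 6.02%, 4.46% and 6.91%.

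Among the α chains, *Lama4* was abundant in both vessel wall populations, *Lama2* was highest in mural cells, *Lama5* was low in mural cells, and *Lama1* was at like levels in neural and mural bulk libraries. Values are normalized counts in the order of the numbers in the library names throughout. *Lama4* (chr10:38965515-39110188, mm10, plus strand) encodes the α4 chain, known from endothelial membranes. It was at 14934, 12250 and 18075 in the mural libraries, 18159, 16895 and 14632 in the endothelial libraries, 46.7, 63.1 and 61.0 in the neural libraries and 4.75, 79.5 and 12.6 in the microglial libraries. The mural and endothelial libraries overlapped, and all 6 lay far above the other 6. In limma on log2(normalized count + 1) the mural minus endothelial difference was -0.15 ± 0.72 (SE, adjusted p = 0.92, n = 3 each), while mural exceeded neural by 8.02 ± 0.72 (adjusted p = 4.7e-06) and endothelial exceeded neural by 8.16 ± 0.72 (adjusted p = 3.8e-06). The neural and microglial levels, next to each other in the order, did not pass the test (1.64 ± 0.72, adjusted p = 0.069).

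*Lama2* (chr10:26980036-27619758, minus strand) encodes the α2 chain, known from muscle and from the glial side of brain vessels. The mural libraries held 1457, 1028 and 1474 normalized counts, the neural libraries 46.7, 49.8 and 70.0, and the endothelial libraries 8.86, 24.1 and 3.02, and *Lama2* was listed at 0 in all 3 microglial libraries. No population overlapped another. Both steps passed the limma test: mural over neural by 4.55 ± 0.68 on the log2 scale (adjusted p = 0.00021), and neural over endothelial by 2.48 ± 0.68 (adjusted p = 0.0094). The endothelial values rest on 5, 17 and 2 reads. The *Lama2* locus overlaps 5 annotated genes on the other strand, and whether counting used strand was not given in the sources used here.

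*Lama1* (chr17:67697259-67822647, plus strand) encodes the α1 chain, which is known from early embryonic and pial membranes. Its normalized counts were 669, 574 and 637 in neural, 743, 374 and 1037 in mural, 119, 309 and 33.2 in endothelial and 0, 0 and 7.55 in microglial libraries. Neural and mural libraries overlapped (difference 0.08 ± 0.95 in limma log2, adjusted p = 0.96), and all 6 lay above the endothelial libraries. Neural exceeded endothelial by 2.53 ± 0.95 (adjusted p = 0.041), and endothelial exceeded microglial by 5.73 ± 0.95 (adjusted p = 0.00079). Of the 8 neural markers summed above, *Fabp7* was higher in the mural libraries, at 18397 to 34842 normalized counts, than in the neural libraries, at 7006 to 8042, and *Sox11* was at 13511 to 23250 in mural and 37294 to 39890 in neural libraries. The other 6 were low in mural cells: *Dcx* was at 247 to 814 against 31489 to 35892 in the neural libraries, *Tubb3* at 928 to 1373 against 30178 to 34478, and *Sox2*, *Pax6*, *Neurod6* and *Gad2* at no more than 1082 in any mural library and at least 3211 in every neural library. The part of neural RNA in the mural level of *Lama1* was not tested.

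*Lama5* (chr2:180176373-180225859, minus strand) encodes the α5 chain, which appears in mature vessels and many epithelia. It was at 480, 961 and 744 normalized counts in the endothelial libraries, 509, 462 and 612 in the neural libraries, 0.437, 3.42 and 70.4 in the mural libraries and 0, 58.1 and 59.2 in the microglial libraries. The endothelial and neural libraries overlapped and lay above all mural and microglial libraries. The value of Mu-346 came from 75 reads and those of Mu-340 and Mu-343 from 1 and 3. Endothelial and neural cells did not differ beyond their spread in limma (0.42 ± 1.63 on the log2 scale, adjusted p = 0.85), nor did microglial and mural cells (0.99 ± 1.63, adjusted p = 0.68), and neural exceeded microglial cells by 5.10 ± 1.63 (adjusted p = 0.019).

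The β chains differed in where they were high. *Lamb1* (chr12:31265234-31329644, plus strand), the β chain of most embryonic laminins, was at 14202, 13630 and 16803 normalized counts in mural, 4880, 12939 and 4570 in endothelial, 620, 627 and 739 in neural and 23.8, 14.2 and 49.1 in microglial libraries. The populations did not overlap, although Ec-343 came close to the lowest mural library. The mural minus endothelial difference was 1.16 ± 0.45 on the log2 scale in limma and missed the threshold (adjusted p = 0.078). Without Ec-343 it was 1.65 (adjusted p = 0.013). Endothelial exceeded neural by 3.32 ± 0.45 (adjusted p = 9.9e-05), and neural exceeded microglial by 4.63 ± 0.45 (adjusted p = 6.9e-06). *Lamb2* (chr9:108479736-108490530, plus strand), the β chain of mature vascular and synaptic laminins, was at 3156, 3773 and 2121 in endothelial, 1476, 1261 and 1243 in mural, 1226, 1140 and 1283 in neural and 160, 109 and 266 in microglial libraries. The endothelial libraries lay above all others, and the mural and neural libraries overlapped. Endothelial exceeded mural by 1.15 ± 0.31 on the log2 scale (limma, adjusted p = 0.018). This call was lost without Ec-343 (-0.97 for mural minus endothelial, adjusted p = 0.061) and without Mu-346 (-1.10, adjusted p = 0.050). Mural and neural libraries, made with different kits, did not differ beyond their spread (0.12 ± 0.31, adjusted p = 0.77), unlike the single cells described further on.

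The γ chains separated mural from all other cells. *Lamc1* (chr1:153218922-153332786, minus strand), the γ chain of most laminins and the one with the classic nidogen site, was at 11799, 11102 and 15043 normalized counts in mural, 5473, 6034 and 4387 in endothelial, 1168, 1112 and 1327 in neural and 405, 154 and 360 in microglial libraries. None of the 4 groups overlapped, and each step passed the limma test: mural over endothelial by 1.25 ± 0.31 on the log2 scale (2.39-fold, adjusted p = 0.012), endothelial over neural by 2.13 ± 0.31 (adjusted p = 0.00017) and neural over microglial by 2.08 ± 0.31 (adjusted p = 0.00018). *Lamc3* (chr2:31887291-31946539, plus strand), the γ3 chain, a less common partner, was at 2045, 2568 and 3886 in the mural libraries. The endothelial libraries held 17.7, 72.4 and 1.51 normalized counts of it and the neural libraries 8.01, 8.86 and 6.34, and it was listed at 0 in all microglial libraries. Every mural library was above the highest other library by a wide margin. The mural minus endothelial difference was 7.50 ± 1.01 on the log2 scale (limma, adjusted p = 0.00028), and endothelial and neural cells did not differ beyond their spread (0.80 ± 1.01, adjusted p = 0.52). Endothelial *Lamc3* against the mean of the other populations missed the threshold with all libraries, and its direction was not stable: it was lower without Ec-343 (-2.07, adjusted p = 0.041), and its sign turned without Ec-346 (0.37, adjusted p = 0.66), in edgeR (1.20, adjusted p = 0.37) and in DESeq2 (0.86, adjusted p = 0.42).

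Both nidogens were high in the vessel wall, *Nid1* with the higher mean in mural cells and *Nid2* with the higher mean in endothelial cells, and neither difference passed limma in the bulk libraries. *Nid1* (chr13:13437551-13512269, plus strand) was the member with the highest level per kilobase of exon in mural cells. Its normalized counts were 25744, 22148 and 26369 in mural, 11294, 14814 and 10803 in endothelial, 292, 370 and 436 in neural and 4.75, 0 and 1.26 in microglial libraries. The groups did not overlap, yet mural minus endothelial was 1.02 ± 0.49 on the log2 scale and missed the limma threshold (adjusted p = 0.15). edgeR and DESeq2 on the reads recovered from the same values called it, at 1.06 (adjusted p = 0.020) and 1.01 (adjusted p = 1.9e-05). *Nid1* of endothelial cells exceeded that of neural cells by 5.07 ± 0.49 (limma, adjusted p = 8.5e-06). *Nid2* (chr14:19751265-19811787, plus strand) was at 2187, 9438 and 4855 in endothelial, 1779, 2213 and 2615 in mural, 565, 957 and 898 in microglial and 186, 164 and 162 in neural libraries. It was the only member whose neural libraries lay below all 9 others. Endothelial and mural libraries overlapped, and mural minus endothelial was -1.09 ± 0.43 on the log2 scale (limma, adjusted p = 0.085). Without Ec-340 the difference was -1.64 (adjusted p = 0.0045), and without Ec-343, the highest library, it was -0.58 (adjusted p = 0.26). edgeR and DESeq2 on the recovered reads of all libraries gave -1.27 (adjusted p = 0.049) and -1.32 (adjusted p = 0.012). Microglia exceeded neural cells by 2.20 ± 0.43 (adjusted p = 0.0012), while *Nid1* was at most 4.75 normalized counts in microglia. The microglial libraries also held border macrophage markers, at a sum of 9707 to 13100, whose part in the level of *Nid2* was not tested. *Nid2* overlaps *Rtraf* on the other strand.

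**Figure D1:**
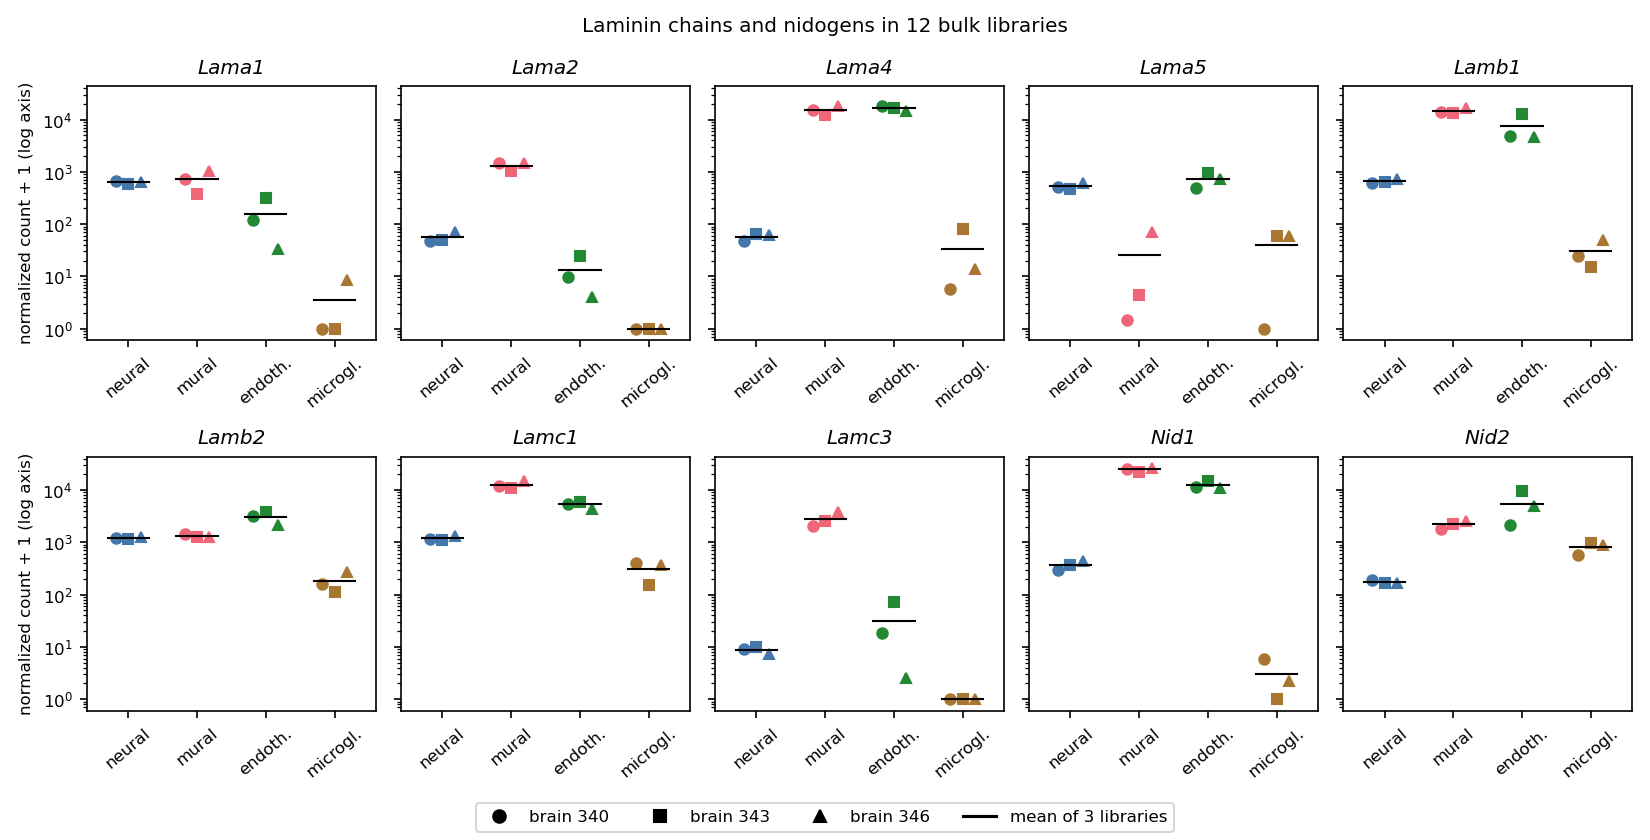
Normalized counts of the 10 members plus 1, on a log axis, in each of the 12 bulk libraries. Marker shape gives the brain, colour the population, and the black line the mean of 3 libraries. Lama4 is at 12250 or more in all mural and endothelial libraries, and Lamc3 is at 2045 or more in mural libraries and at most 72.4 elsewhere.

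Counted over the 4 populations, the members leaned to the vessel wall. In the mural libraries 8 of 10 members were higher than the mean of the other populations at an adjusted p under 0.05 in limma, where 19.3% of all genes tested were, and *Lama5* was lower, where 22.7% were. In 7 of the 10 the mural excess was over 10-fold, against 4.99% of all genes. The mean of the other populations is a mean of log2 values, so a population near 0 lowers it strongly. *Nid2* was called higher in mural cells at a mean of 2202 normalized counts, although its endothelial mean was 5493. In the endothelial libraries 7 members were higher, against 19.7% of all genes, 4 of them over 10-fold, against 6.28%, and *Lama2* was lower, against 22.4%. In the neural libraries *Lama1* and *Lama5* were higher (32.9% of all genes were) and 5 members were lower (31.2%). In microglia 8 members were lower, against 22.3% of all genes, 7 of them over 10-fold, against 7.45%. The median difference of the 10 members was 4.30 in mural, 2.49 in endothelial, -1.10 in neural and -6.32 in microglial libraries on the log2 scale, beside -0.10, -0.12, 0.09 and -0.02 over all genes tested. *Lama2* and *Lamc3* enter these counts with microglia at 0, so that their fitted differences depend on the added 1, as does the microglial median, which lies midway between theirs (-6.49 and -6.15). Microglial *Nid1* (4.75, 0 and 1.26) and *Lama1* (0, 0 and 7.55) were near 0 too, so their differences also depend on the added 1. Single libraries decided some of these calls in limma. The lower mural level of *Lama5* (-4.53 ± 1.33, adjusted p = 0.019) was lost without Mu-340 (-3.32, adjusted p = 0.10) or Mu-343 (-4.13, adjusted p = 0.076), and its higher endothelial level (4.15 ± 1.33, adjusted p = 0.028) without any one of the endothelial libraries (adjusted p from 0.058 to 0.083). Its higher neural level (3.59 ± 1.33, adjusted p = 0.035) was lost without any one neural library, Mu-340, Mu-343 or Ec-340 (adjusted p from 0.050 to 0.10). The lower neural *Lamb1* was lost without any one neural library (adjusted p from 0.057 to 0.085) and that of *Nid1* without N-340 (adjusted p = 0.072), the higher mural *Nid2* without Mu-346 (adjusted p = 0.050) and the lower endothelial *Lama2* without Ec-346 (adjusted p = 0.055). Without Ec-343, neural *Lama2* (1.46, adjusted p = 0.015) and mural *Lamb2* (0.71, adjusted p = 0.043) passed as higher and neural *Lamc3* (-1.61, adjusted p = 0.040) as lower. Other libraries did the same: neural *Lamc3* passed without Ec-346 (-2.43, adjusted p = 0.0023), mural and neural *Lamb2* without Mi-346 (0.76, adjusted p = 0.013, and 0.60, adjusted p = 0.024), lower microglial *Nid2* without Ec-340 (-0.79, adjusted p = 0.022) and lower microglial *Lama5* without Mu-340 (-3.62, adjusted p = 0.042). All 3 mural libraries lay above the 9 others for 5 members, *Lama2*, *Lamb1*, *Lamc1*, *Lamc3* and *Nid1*, where 7.25% of all genes tested did so. The endothelial libraries did so for *Lamb2* (6.28% of all genes), the 3 microglial libraries lay below the 9 others for 7 members (5.97%), and the neural libraries lay below for *Nid2* (17.3%).

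Setting mural directly against endothelial cells, 3 members were higher in mural cells in limma, against 13.5% of all genes tested, and 2 were lower, against 14.3%. *Lamc3* (7.50 ± 1.01), *Lama2* (7.03 ± 0.68, adjusted p = 2.7e-05) and *Lamc1* (1.25 ± 0.31) were higher, and *Lama5* (-6.51 ± 1.63, adjusted p = 0.013) and *Lamb2* (-1.15 ± 0.31) were lower. *Lama1* had a mural excess of 2.61 ± 0.95 that missed the threshold (adjusted p = 0.064), and without Ec-343 it was 3.37 (adjusted p = 0.029). In 6 members all 3 mural libraries lay above the 3 endothelial libraries (17.3% of all genes), and in *Lama5* and *Lamb2* all 3 lay below (17.7%). Leaving out a microglial library, which changes only the shared estimate of the spread here, brought *Lama1* (adjusted p = 0.026) and *Lamb1* (adjusted p = 0.042) past the threshold without Mi-346, and *Nid1* without Mi-340 (adjusted p = 0.029) or Mi-343 (adjusted p = 0.041). *Lama5* missed the threshold in edgeR on the recovered reads (-4.84, adjusted p = 0.051).

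**Figure D2:**
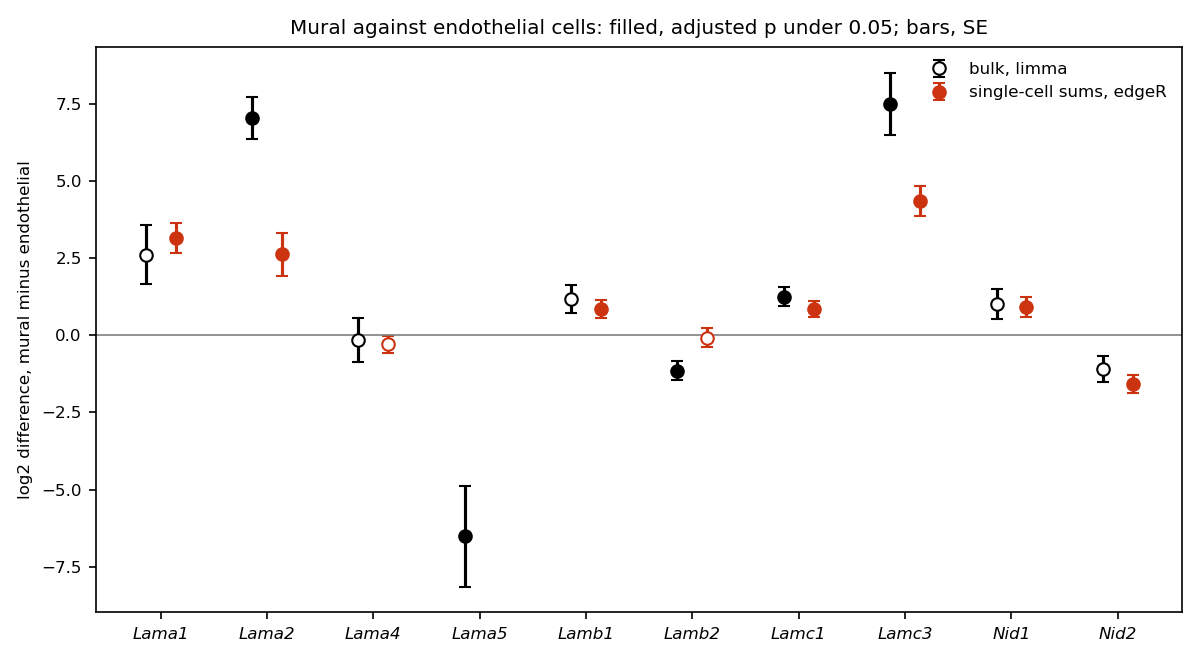
Mural minus endothelial difference of each member on the log2 scale, in bulk libraries (limma, black) and in single-cell sums (edgeR, red). Bars are standard errors and filled points have an adjusted p under 0.05. Lama4 lies near 0 in both, at -0.15 and -0.29, while Lamc3 is the highest in both.

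To compare members with each other, normalized counts were divided by the kilobases of annotated exon. On this scale mural cells held 3565 ± 328 of *Nid1*, 1529 ± 254 of *Lamc1*, 1500 ± 170.5 of *Lamb1*, 1250 ± 242 of *Lama4*, 465 ± 156 of *Lamc3*, 426 ± 80.8 of *Nid2* and 218 ± 21.3 of *Lamb2* (SD, n = 3), and *Lama2* and *Lama1* were at 80.8 ± 15.5 and 74.2 ± 34.3. Endothelial cells held 1772 ± 315 of *Nid1*, 1372 ± 148 of *Lama4*, 1062 ± 709 of *Nid2*, 752.5 ± 478.5 of *Lamb1*, 640.5 ± 101 of *Lamc1* and 496 ± 137 of *Lamb2*. With the longest transcript as the length instead, an alternative added for these levels after seeing the data, the order changed. *Nid1* stayed highest in mural cells at 4064 ± 374, with *Lamb1* (2572 ± 292) and *Lama4* (2495 ± 482) next and *Lamc1* (1659 ± 276) after them, and in endothelial cells *Lama4* (2739 ± 295) was above *Nid1* (2020 ± 359). *Lama4* made up 88.2%, 90.9% and 88.0% of the α chain level per kilobase in the mural libraries and 96.5%, 92.2% and 94.6% in the endothelial libraries, so that the ranges did not overlap although both were high. In neural cells *Lama1* and *Lama5* made up most of the pool, with mean shares of 54.4% ± 3.15 and 38.8% ± 2.53. The remainder of the α pool differed within the vessel wall. *Lama2* was 5.76% ± 0.54 and *Lama1* 5.08% ± 1.46 of the mural pool, against 0.05% ± 0.04 and 1.05% ± 0.95 of the endothelial pool, and *Lama5* was 4.45% ± 1.53 of the endothelial and 0.13% ± 0.20 of the mural pool.

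*Lamb2* was 14.5%, 13.1% and 10.8% of the β level per kilobase in mural, 51.3%, 32.2% and 43.1% in endothelial, and 76.3%, 74.8% and 73.9% in neural libraries. The 3 populations were thus separate. With the longest transcript as the length the means were 8.46% in mural, 31.8% in endothelial and 65.4% in neural libraries, and their ranges were separate there too. *Lamc3* was 19.1%, 23.9% and 26.0% of the γ level in mural libraries and at most 1.60% in any endothelial library. *Nid2* was 8.49%, 11.8% and 11.7% of the nidogen level in mural and 20.6%, 46.1% and 37.6% in endothelial libraries, and at least 99.4% in microglia. In microglia the summed α level was only 0.394 to 11.7 normalized counts per kilobase.

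The balance between pools differed as well. The α level divided by the γ level was 0.796, 0.633 and 0.693 in mural and 2.35, 2.05 and 2.41 in endothelial libraries. Nidogen over γ was 2.30, 2.05 and 1.75 in mural and 3.08, 5.34 and 4.70 in endothelial libraries, and 0.585 ± 0.040 (SD, n = 3) in neural libraries. Neither ratio overlapped between the vessel wall populations. Their size depended on the length used, in alternatives added after seeing the data. With the longest transcript the mean α over γ was 1.27 ± 0.14 in mural and 4.06 ± 0.38 in endothelial libraries, and with no length scaling 1.11 ± 0.12 and 3.30 ± 0.28. Nidogen over γ was 2.14 ± 0.29 and 4.48 ± 1.16 with the longest transcript and 1.77 ± 0.23 and 3.33 ± 0.79 with no scaling, and with each length the ranges of both ratios were separate. In the exact two-sided permutation test each of the 13 shares and ratios compared between mural and endothelial libraries gave p = 0.1 (0.1 after Benjamini-Hochberg adjustment over the 13), which is the smallest p that 3 against 3 allows, so none can pass a threshold of 0.05.

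**Figure D3:**
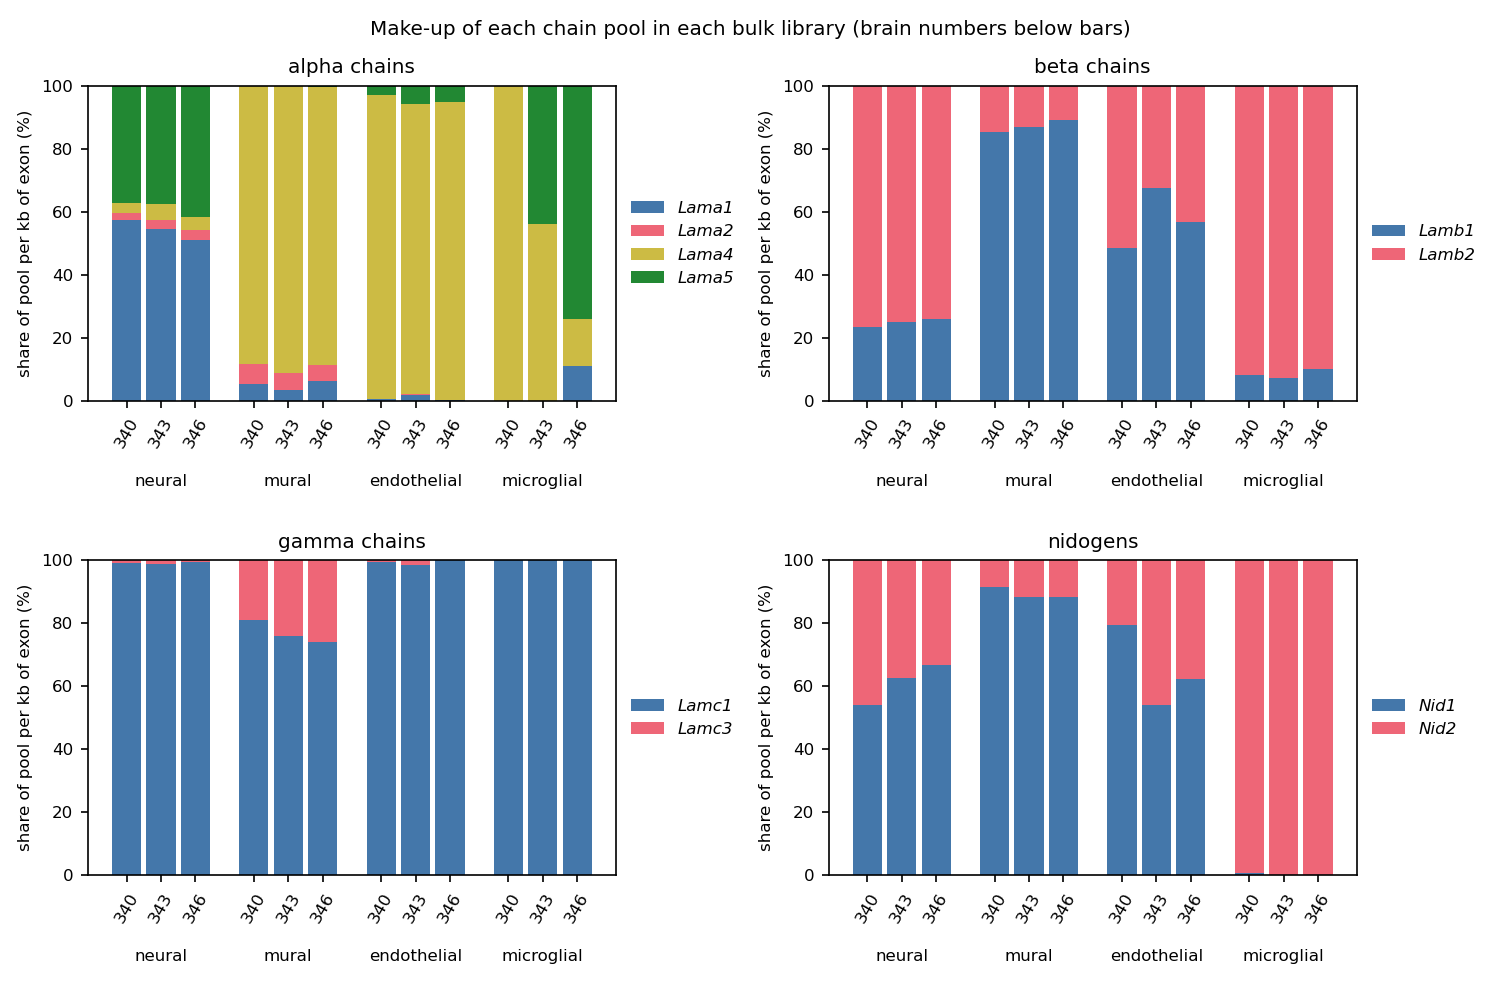
Make-up of the α, β, γ and nidogen pools in each bulk library, as the share of each member in the summed normalized counts per kilobase of exon. Bars are single libraries with the brain number below. Lama4 fills 88.0% or more of the α pool in mural and endothelial libraries, and Lamc3 is visible in mural libraries.

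The single cells gave a second measurement, made with 1 protocol (mCEL-Seq2, in which molecular identifiers at the 3′ end stand for transcripts) for all gates. After the minimum of 1500 transcripts, 210 mural, 225 endothelial, 123 neural and 128 microglial cells remained, with medians of 6885, 6408, 7717 and 10761 transcripts. Plate 3 gave only 10 mural and 13 endothelial cells. Levels are CPM, the transcripts of a gate's summed cells scaled to an equal total, on plates 1, 2 and 3. *Nid1* was at 1116, 1305 and 1597 in the mural gate and 653, 627 and 542 in the endothelial gate. *Lamb1* was at 602, 623 and 550 in mural and 272, 272 and 356 in endothelial cells. *Lamc1* was at 352, 425 and 481 in mural and 211, 168 and 257 in endothelial cells. For these 3 genes the mural plates lay above the endothelial plates.

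*Lama4* was at 329, 437 and 261 CPM in the mural gate and 397, 380 and 371 in the endothelial gate, and the plates overlapped. *Lamc3* was at 109, 129 and 82.4 in mural cells and 5.21, 1.57 and 28.5 in endothelial cells, the last from 2 transcripts. *Lama1* was at 57.0, 68.5 and 96.1 in mural and 5.21, 9.43 and 0 in endothelial cells. The plates of the 2 gates were separate for *Lamc3* and for *Lama1*. In the neural gate *Lama1* was at 8.86, 18.9 and 0, where on plate 3 a floor of 3 transcripts is 32.8 CPM. The mural plates lay above the neural plates, unlike in the bulk libraries. In edgeR the mural excess over neural cells was 2.40 ± 0.49 on the log2 scale (adjusted p = 6.9e-05). *Lama1* would not have entered this test without its mural sums, so the test is no evidence of that excess. *Nid2* had the opposite order, at 52.2, 70.9 and 41.2 in mural and 157, 201 and 57.0 in endothelial cells, and the gates overlapped through plate 3, where the values rest on 3 and 4 transcripts. *Lamb2* was at 63.3, 60.2 and 41.2 in mural and 61.5, 51.8 and 57.0 in endothelial cells. These overlapped, unlike the bulk libraries. The neural gate held *Lamb2* at 11.1, 9.47 and 0 CPM, and mural exceeded neural cells by 2.65 ± 0.49 (edgeR adjusted p = 1.1e-05), a difference that was not seen in the bulk libraries. *Lamb2* was in 31.9% of mural and 4.88% of neural cells, and after thinning each cell to 1500 transcripts in 8.10% and 0.813%. *Lama2* was at 20.6, 26.0 and 13.7 in mural and 1.04, 3.14 and 28.5 in endothelial cells, so that the gates overlapped and plate 3 had the reverse order, on 1 and 2 transcripts.

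In edgeR on the 12 sums of plate and gate, 9 of the 10 members had enough transcripts to enter the test of 9281 genes. All 9 tested were higher in the mural gate than in the mean of the other gates (13.5% of all genes tested were), 6 of them over 10-fold (2.96%), and 6 were higher in the endothelial gate (16.4%), 3 of them over 10-fold (3.02%). Microglia had 6 members lower (21.2% of all genes) and the neural gate 5 (17.3%). Between the vessel gates 6 members were higher in mural cells (9.17% of all genes) and *Nid2* was higher in endothelial cells (11.5% of all genes were lower in mural). The differences were 4.36 ± 0.48 for *Lamc3* (log2, SE, edgeR adjusted p = 8e-11), 3.15 ± 0.50 for *Lama1* (adjusted p = 7.4e-07), 2.62 ± 0.70 for *Lama2* (adjusted p = 0.0033), 0.90 ± 0.32 for *Nid1* (adjusted p = 0.037), 0.85 ± 0.30 for *Lamb1* (adjusted p = 0.033), 0.85 ± 0.26 for *Lamc1* (adjusted p = 0.013) and -1.57 ± 0.29 for *Nid2* (adjusted p = 2.2e-05). *Lama4* (-0.29 ± 0.27, adjusted p = 0.54) and *Lamb2* (-0.07 ± 0.32, adjusted p = 0.92) did not pass. *Lamc3*, *Lama1* and *Lama2* would not have entered the test without their mural sums. Their tests, and their part in the mural counts, are therefore no evidence of a mural excess, which the CPM by plate describe. Without plate 1 or without plate 2, *Lamc3* and *Lama1* kept their calls, *Lama2* could not be tested, and the other 4 lost theirs (adjusted p from 0.12 to 0.69). The higher mural *Nid2* was lost without plate 2 (1.14, adjusted p = 0.30), as was the lower microglial *Lama1* (adjusted p = 0.10). DESeq2 also called *Lamc3* and *Lama1* alone of these. Strict fibroblast transcripts were in 75 of the 210 mural cells, 29 of them with one other than *Twist1*. Without such cells 4 members were higher in mural than in endothelial cells, against 9.39% of the 7658 genes then tested, *Nid1* having a difference of 0.85 (adjusted p = 0.082) and *Lama2* not entering the test.

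*Lama5* had 16 transcripts in endothelial cells (7, 9 and 0 by plate) and none in the other gates, and was not tested. It was found in 13 of 225 endothelial cells (5.78%, exact 95% interval 3.11 to 9.68%). The 0 of 210 mural and 0 of 123 neural cells allow up to 1.74% and 2.95% of cells with a transcript in the exact interval, which limits detection and not the share of cells that express *Lama5*. The neural bulk libraries, by contrast, held *Lama5* from 381, 835 and 2316 reads.

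The share of cells with a transcript differed widely between members. *Nid1* was detected in 190 of 210 mural cells (90.5%, exact 95% interval 85.7 to 94.1%) and 194 of 225 endothelial cells (86.2%, 81.0 to 90.4%). The share was 8.94% in neural cells (4.55 to 15.4%), whose bulk libraries held 292 to 436 normalized counts of *Nid1*, and 12.5% in microglia (7.32 to 19.5%), the deepest cells, whose bulk libraries held at most 4.75. With each cell cut down at random to 1500 transcripts, the shares became 76.7%, 51.6%, 1.63% and 2.34% in mural, endothelial, neural and microglial cells. Intervals cover counting error only.

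*Lama4* had a share of 79.5% in mural cells (73.4 to 84.8%) and 76.4% in the endothelial gate (70.3 to 81.8%), against 3.25% of neural cells and 6.25% of microglia, and thinning left 45.7% and 39.1% in the vessel gates. The γ3 chain *Lamc3* was present in 105 of 210 mural cells (50.0%, 43.0 to 57.0%) but in 2.22% of the endothelial gate (0.73 to 5.11%), close to the shares of neural (2.44%, 0.51 to 6.96%) and microglial cells (3.12%, 0.86 to 7.81%). Thinned, it was in 17.1% of mural, 0.889% of endothelial and 0.781% of microglial cells and in 0 of 123 neural cells, which allows up to 2.95% with a transcript in the exact interval. *Lama1* was in 28.6% of mural (22.6 to 35.2%), 8.13% of neural (3.97 to 14.4%), 3.56% of endothelial (1.55 to 6.89%) and 1.56% of microglial cells (0.19 to 5.53%). Thinned, *Lama1* was in 9.05% of mural, 1.63% of neural and 0.444% of endothelial cells. It was then in 0 of 128 microglial cells, which allows up to 2.84% in the exact interval. *Nid2* was more often seen in the endothelial gate (52.4%, 45.7 to 59.1%) than in the mural gate (33.8%, 27.4 to 40.6%), and thinned in 20.4% and 9.52%. *Lama2*, the sparsest member of the mural gate beside *Lama5*, was found in 25 of 210 mural cells (11.9%, 7.85 to 17.1%).

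Single cells often carried a full set of chains. A transcript of each of *Lama4*, *Lamb1* and *Lamc1* was found in 143 of 210 mural cells (68.1%) and in 95 of 225 endothelial cells (42.2%). After thinning to 1500 transcripts this was 13.8% and 2.67%. Of the 105 mural cells with *Lamc3*, 95 also had *Lamc1*, of the 60 with *Lama1*, 55 also had *Lama4*, and all 71 with *Nid2* also had *Nid1*. Over all mural cells, *Lamc1* and *Lama4* were each in 79.5% and *Nid1* was in 90.5%. After thinning, 17 of 36 mural cells with *Lamc3* also had *Lamc1*, and 12 of 19 with *Lama1* also had *Lama4*. Likewise 18 of 20 with *Nid2* also had *Nid1*. Over all thinned mural cells *Lamc1* was in 41.0%, *Lama4* in 45.7% and *Nid1* in 76.7%. A mural cell had a median of 5 members and an endothelial cell of 4, and 9 cells of each gate had none.

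**Figure D4:**
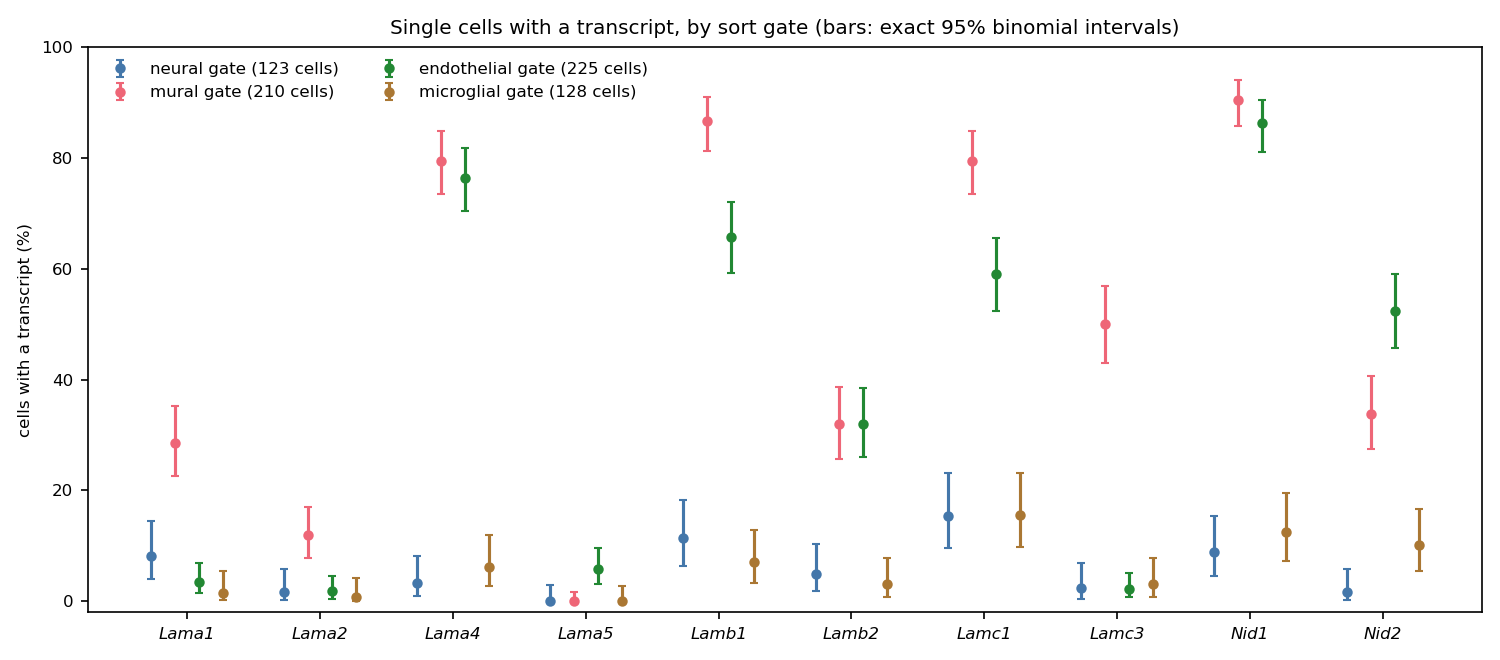
Share of single cells with at least 1 transcript of each member, by sort gate, with exact 95% binomial intervals. Nid1, Lama4, Lamb1 and Lamc1 are in 59.1% or more of the cells of both vessel gates, Lamc3 in 50.0% of mural cells, and no member exceeds 15.6% of neural or microglial cells.

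Laminin chains outside the 10 were low where they are reported here. *Lama3* was at most 36.9 normalized counts in any library and *Lamb3* at most 42.5. *Lamb3* was at 32.0, 36.0 and 42.5 in neural libraries and at most 30.1 in the others, so that it reached the mean of 10 through the neural libraries and its test is not given.

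Among basement membrane partners of the laminins (17 genes, 16 tested), 7 were higher and 3 lower in mural libraries than in the mean of the others (limma, against 19.3% and 22.7% of all genes tested), and 10 were higher and 1 lower in endothelial libraries (against 19.7% and 22.4%). Directly compared, 1 was higher in mural and 6 in endothelial cells (against 13.5% and 14.3%), with a median of -1.13 on the log2 scale beside 0 over all genes tested. *Col15a1*, a collagen on the outer side of the membrane, was at 0.437, 0 and 0 in the mural libraries, a single read in all, and at 1419, 877 and 1086 in the endothelial libraries. *Col18a1*, its relative and the source of endostatin, was at 118, 207 and 144 in mural and 6466, 15187 and 5487 in endothelial libraries (-5.74 ± 0.90, adjusted p = 0.00077), and *Npnt*, an integrin ligand, differed by -5.92 ± 1.37 (adjusted p = 0.0082). *Npnt* was highest in microglia, at 1770 to 3052 normalized counts. It was at 128 to 434 in endothelial, 169 to 256 in neural and 0, 0 and 78.0 in mural libraries. *Egflam* (pikachurin, a dystroglycan ligand) was higher in mural cells than in the mean of the others by 5.51 ± 0.96 (adjusted p = 0.00096). *Col4a2*, an α chain of type IV collagen, was higher in endothelial cells than in the mean of the others by 6.08 ± 0.28 (adjusted p = 1.1e-07), and *Tinagl1* by 6.33 ± 1.03 (adjusted p = 0.00067). In the single-cell sums 10 partners were tested, of which 2 were higher in mural and 5 in endothelial cells (against 9.17% and 11.5% of all genes), with *Col15a1* at -7.16 ± 0.60 (edgeR adjusted p = 1.4e-14).

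A list of 19 laminin and other matrix receptors, not all of which bind laminin, was tested in the bulk libraries. Of these, 10 were higher and 2 lower in mural cells (against 19.3% and 22.7% of all genes) and 9 higher and 6 lower in endothelial cells (19.7% and 22.4%). In the direct comparison 6 were higher and 3 lower in mural than in endothelial cells (13.5% and 14.3%), with a median of 1.08 on the log2 scale. *Itgb5*, an integrin β subunit, was at 3514, 2422 and 3474 normalized counts in mural and 0, 7.10 and 1.51 in endothelial libraries (10.15 ± 0.59, adjusted p = 7.5e-07), although microglia held 9799 to 11983. *Sdc2*, a heparan sulphate proteoglycan, was at 8823, 5707 and 9248 in mural and 0, 8.52 and 0 in endothelial libraries (11.84 ± 0.96, adjusted p = 7.6e-06). *Itga2*, the α subunit of a collagen and laminin receptor, went the other way (-7.68 ± 1.34, adjusted p = 0.0015), with 1332, 1133 and 1374 in endothelial libraries. *Itga1*, its relative, was higher in mural cells than in the mean of the others by 7.77 ± 0.55 (adjusted p = 2.1e-06), and *Mcam*, which binds the α4 chain, by 4.83 ± 0.45 (adjusted p = 1.7e-05). In the single-cell sums 11 receptors were tested and 6 were higher in mural than in endothelial cells (against 9.17% of all genes), while the one with a lower fitted level, *Itga6*, did not pass (-0.09 ± 0.27, adjusted p = 0.89, where 11.5% of all genes were lower). Among the 6 were *Sdc2* (4.65 ± 0.39), *Itgb5* (3.43 ± 0.50) and *Itgav* (2.54 ± 0.31, edgeR adjusted p = 1.4e-09).

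Among the enzymes that build the laminin-binding glycan on dystroglycan (13 tested in the bulk libraries), 3 were higher and 1 lower in mural cells and 1 was higher and 2 lower in endothelial cells (limma, against 19.3% and 22.7% and against 19.7% and 22.4% of all genes). *B4gat1*, a glucuronyltransferase, was higher in mural than in endothelial cells by 1.08 ± 0.21 on the log2 scale (limma, adjusted p = 0.0027) and *Pomk*, a mannose kinase, by 3.19 ± 1.04 (adjusted p = 0.043). *Rxylt1* was higher in endothelial cells than in the mean of the others by 0.87 ± 0.15 (adjusted p = 0.00087).

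The genes whose pattern over the 12 libraries was most like a member's were ranked by Pearson correlation of log2(normalized count + 1) among 13137 genes with a mean of at least 100, as a description over libraries that fall into 4 populations. For *Lama4* they were *Foxf2* (r = 0.996), *C1qtnf6* (0.993) and *Cd40* (0.989), and for *Nid1* they were *Prex2* (0.992) and *Akap12* (0.991). For *Nid2* they were *Ccdc102a* (0.973), *St5* (0.972) and *Sntb2* (0.971), and for *Lama2* they were *Klhl23* (0.978), *Spry2* (0.978) and *Dmd* (0.970). For *Lama1*, *Snapc3* (0.973), *Cask* (0.969) and *Stx12* (0.967) came first, and for *Lama5*, *Nr4a2* (0.950), *Crim1* (0.937) and *Sh3bp4* (0.923).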

How the data were processed

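The members and lists were chosen with earlier results of these data known. The bulk table that the authors deposited holds normalized counts, a linear signal. Each of its values is a read number over a size factor of its library: of 123944 values of up to 100 reads, 100% were whole within 0.01, so the reads were recovered for count tests. The deposited single-cell tables hold expected counts of transcripts, adjusted for identifiers drawn more than once, and were added up by plate and sort gate and rounded. The submitters' processing notes name STAR, featureCounts, DESeq2, BWA 0.6.2-r126 and mm10. Positions and exon lengths were taken from GENCODE vM21, which held 53274 of the 53465 gene identifiers, and promoters from RefSeq.

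For the bulk libraries, limma 3.58.1 (R 4.3.3) was run on log2(normalized count + 1) with a variance trend, over 19765 genes with a mean of at least 10 and all 12 libraries in 1 fit. This scale understates the change of low genes. Single-cell sums went through edgeR 4.0.16 (quasi-likelihood, TMM, filterByExpr), with the SE taken as the log2 difference over the square root of F. Each population or gate was set against the mean of the log2 levels of the others. Adjusted p-values (Benjamini-Hochberg, all genes tested) under 0.05 were called. DESeq2 1.42.0, other pseudocounts, filters, normalizations and lengths, thinning and leaving out libraries were alternatives. In simulated mural cells limma called 60 of 100 genes changed by 2 and 84 of 100 changed by 4 on the log2 scale, and edgeR 85 and 100 of 100.

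All members were named. Of each other list, the counts and the 3 genes with the largest called differences in mural, endothelial or mural against endothelial cells were named (*Lamb3*, a count of 1, was named after its values were seen). Some genes that the rule names are not reported here. Kept wells had more than 1500 transcripts, and the same well barcodes recur in each of the 11 libraries, so a shared barcode marks a well position. Plates were the replicates, and the sources used here do not say which brain each held. A number shared by bulk libraries was read as 1 brain, which pairs the populations. Their deviations from the group means correlated at -0.054 to 0.080 over 18 pairs. With 3 brains or plates, p-values measure the spread between these samples only. *Mof* knockout cells had no gate and were not used.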

Additional observations from a re-analysis of the deposited data

How the results depend on the processing

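Counts of members called were recomputed under other settings. In the bulk libraries the 2 members higher in neural cells became 1 with no filter or quantile normalization. The 1 lower in mural cells became 0 with a pseudocount of 0.1 or edgeR on recovered reads, and the 1 lower in endothelial cells became 0 with a pseudocount of 0.1, edgeR or DESeq2 and 2 with a pseudocount of 10. The 3 higher in mural than endothelial cells became 6 with a pseudocount of 10 and 5 in DESeq2. In the single-cell sums the 9 higher in mural cells became 4 after thinning, where only 2016 genes were tested. The 6 higher in mural than endothelial cells became 2 in DESeq2, 3 with no filter and 3 after thinning, and the 1 lower became 0, 2 and 0. Quantile normalization moved the median difference of all genes from 0.09 to -0.16 in neural and from -0.10 to 0.04 in mural libraries. The share of *Lama4* in the α pool was 92.2% in mural and 97.1% in endothelial libraries with the longest transcript as the length, and that of *Nid1* in mural libraries was 91.8% without length scaling. Of 20 shares of members in their pools, 9 moved by more than the spread of the libraries under each of these lengths, among them endothelial *Lamb2*, from 42.2% to 31.8% and 31.2%. The causes were not tested.

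Leaving out single bulk libraries gave 1 to 3 members higher and 3 to 6 lower in neural cells, 7 to 9 and 0 to 1 in mural cells, 6 to 7 and 0 to 2 in endothelial cells, and 3 to 5 higher and 1 to 3 lower in mural than in endothelial cells. Leaving out single plates gave 2 to 6 members higher and 0 to 1 lower in mural than in endothelial cells, and 7 to 9 higher in mural cells. The replicate block by brain called *Lama5* lower in microglia (-3.21, adjusted p = 0.038 in limma), and the block by plate called *Lamb2* (-1.44, adjusted p = 0.038 in edgeR) and *Lamc3* (-2.08, adjusted p = 0.030) lower in neural cells. Neither block changed another call. Neural *Lamb2* also passed as lower in edgeR without cells with a strict fibroblast transcript (-2.63, adjusted p = 0.0036) and without plate 3 (-1.38, adjusted p = 0.03).

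Differences that changed sign had not been called. Against the mean of the others, endothelial *Lama1* was -0.51 with a pseudocount of 10 and -0.57 to 1.03 when single libraries were left out, the lowest without Ec-343. Endothelial *Lamc3* was 1.20 in edgeR, 0.86 in DESeq2 and -2.07 to 0.37 when single libraries were left out, the highest without Ec-346, and in single cells it was -1.44 to 1.12 when plates were left out, the highest without plate 2. In single cells neural *Lama1* was -0.13 without cells with a fibroblast transcript, -0.11 when *Twist1* was not counted (an alternative chosen after seeing the data) and -0.33 to 0.33 when plates were left out, the lowest without plate 2. Endothelial *Lama2* was 0.55 in DESeq2 and 0.040 with the replicate block, and mural minus endothelial *Lamb2* was 0.0059 in sums per library and -0.28 to 0.031 when plates were left out, the highest without plate 3. *Lama2* and *Lama5* had few transcripts in single cells, and the part of depth in this was not tested.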
